A study of Mus musculus with 4 samples.

Results

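A set of 10 genes of the inflammasome pathway was followed in small intestinal epithelial cells of irradiated mice: the sensor genes Nlrp6, Nlrp9b, Nlrp1b, Nlrc4 and Naip1, the adaptor gene Pycard, the protease genes Casp1 and Casp4, the cytokine gene Il18 and the pore gene Gsdmd. They were taken by gene symbol, with earlier results of these data known, and are 10 of the 32285 genes in the count matrices. Inflammasomes are complexes in the cytosol in which a sensor, after meeting a microbial or damage signal, recruits caspase-1, often through the adaptor ASC (encoded by Pycard). Caspase-1 matures IL-18 and cleaves gasdermin D, which then forms pores in the membrane and can release the cytokine or kill the cell by pyroptosis. In the gut these sensors act in the epithelium itself, where they answer to flagellated bacteria, to rotavirus and to the microbiota.

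The mice were wild type (WT) or VilCreIfnlr1fl/fl (KO here), in which Cre under the Villin promoter removes floxed Ifnlr1, the interferon lambda receptor gene, from the intestinal epithelium. Both genotypes received 11 Gy of gamma irradiation with the head, thorax and upper limbs shielded by lead, and no unirradiated mice were analysed here. The small intestine was collected 3 days later according to the extraction protocol and 96 h later according to the series design, which were not reconciled. EPCAM-stained live cells without CD45 were sorted from 3 mice per genotype. A hashtag (a streptavidin-borne DNA barcode) marked each mouse, and 1 library per genotype was made from the pooled mice, so that genotype and pool cannot be told apart. Mice are named below by genotype and hashtag number (WT1 to WT3 and KO1 to KO3).

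After filtering, 9591 cells remained, of which 5641 carried the hashtag of 1 mouse, between 843 and 1062 for each mouse. Summed gene UMIs (unique molecular identifiers, 1 for each captured transcript) ran from 11142876 to 35999518 for each mouse, and levels are given as CPM, the UMIs of a gene scaled to the summed UMIs of the same cells. Cells were sorted into gates by the share of their UMIs from marker genes, so a gate is a range and not a cell type. The enterocyte gate held 6694 cells, the goblet gate 1655, the crypt gate 560, the Paneth gate 176, the enteroendocrine gate 126, the tuft gate 60 and the immune gate 54, and 266 cells were in no gate. In the enterocyte gate the median cell had 7.20% of its UMIs from enterocyte markers and 0.203% from goblet markers, and immune and tuft markers had a median of 0. Ifnlr1 itself was read at 26.5 to 40.3 CPM in enterocyte-gate cells of all 6 mice, but the part of the gene that is deleted is not named in the labels, so these 3′ reads do not check the genotype.

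The 2 mice with hashtag 2 stood apart from the rest. WT2 and KO2 had 120 and 199 crypt-gate cells against 4 to 8 in the other mice. In the lowest zone of the villus they also held 55 and 85 cells with a ribosomal protein share of at least 3% of UMIs, against 4 to 11 in the others. Main results that these mice or cells move are therefore also given without them. Leaving them out was chosen after the values had been seen, and the p-values of such fits rest on that choice. Fits without WT2 and KO2 hold 2 mice per genotype.

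Promoter windows from RefSeq (GRCm38.p6, 250 bases before to 50 after the start site, on the gene's strand) were found for 9 of the 10 genes, all but Gsdmd. Nlrp9b is shown because its level differed between genotypes on the upper villus, and Nlrp6 and Il18 because they were highest on the lower villus. Casp4 is shown because it was lower in all KO mice in the enterocyte and goblet gates. Capitals mark matches to the motifs searched on both strands: the interferon-stimulated response element GAAANNGAAA, the STAT element TTCNNNGAA, the HNF4 motif CAAAGTCCA and the AP-1 motif TGANTCA.
Nlrp9b (chr7:20007773-20008072, plus strand): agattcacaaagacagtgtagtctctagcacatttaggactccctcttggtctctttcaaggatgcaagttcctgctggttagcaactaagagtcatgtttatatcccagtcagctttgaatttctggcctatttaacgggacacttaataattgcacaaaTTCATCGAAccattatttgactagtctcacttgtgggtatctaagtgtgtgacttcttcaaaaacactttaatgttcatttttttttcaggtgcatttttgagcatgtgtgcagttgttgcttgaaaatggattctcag
Nlrp6 (chr7:140920652-140920951, plus strand): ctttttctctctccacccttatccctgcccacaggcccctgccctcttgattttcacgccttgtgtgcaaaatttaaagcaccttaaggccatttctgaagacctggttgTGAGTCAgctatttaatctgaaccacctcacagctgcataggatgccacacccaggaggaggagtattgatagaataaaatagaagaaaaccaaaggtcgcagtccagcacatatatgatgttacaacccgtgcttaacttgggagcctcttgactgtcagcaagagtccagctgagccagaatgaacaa
Il18 (chr9:50554450-50554749, plus strand): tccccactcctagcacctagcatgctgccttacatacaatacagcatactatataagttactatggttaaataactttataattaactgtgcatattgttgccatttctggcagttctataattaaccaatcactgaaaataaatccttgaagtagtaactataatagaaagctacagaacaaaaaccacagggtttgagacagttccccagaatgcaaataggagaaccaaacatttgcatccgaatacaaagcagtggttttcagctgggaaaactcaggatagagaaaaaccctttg
Casp4 (chr9:5308599-5308898, plus strand): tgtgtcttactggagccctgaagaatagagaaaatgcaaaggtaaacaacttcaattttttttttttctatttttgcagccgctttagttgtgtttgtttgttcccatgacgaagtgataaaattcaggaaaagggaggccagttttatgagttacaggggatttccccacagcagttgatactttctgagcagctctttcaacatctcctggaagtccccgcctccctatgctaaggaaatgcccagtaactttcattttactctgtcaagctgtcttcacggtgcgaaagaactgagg
The capitals in Nlrp9b are a STAT element that starts at position -89 from the start site, and those in Nlrp6 are an AP-1 motif that starts at -140. Of all 32851 RefSeq promoter windows, 8.3% held the STAT element and 7.81% the AP-1 motif, so a single match is ordinary. The interferon-stimulated response element (3.44% of windows) and the HNF4 motif (0.47%) had no match in any of the 11 windows of the 9 genes. A match of letters is a description and not a binding site, and the Nlrp9b window lies inside the longer gene of the annotation, downstream of its first start.

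The sensors are spread over the genome, while the proteases are neighbours. In the GRCm38 annotation Nlrp6 lies at chr7:140920902-140929192, Nlrp9b at chr7:19991465-20073306, Nlrp1b at chr11:71153102-71230733, Nlrc4 at chr17:74425438-74459142 and Naip1 at chr13:100407764-100452869. Casp1 (chr9:5298517-5307265) and Casp4 (chr9:5308828-5336783) follow each other on the plus strand of the chromosome that also holds Il18 (chr9:50554827-50581840). Pycard lies at chr7:127989708-127993867 and Gsdmd at chr15:75862327-75867408. All 10 are protein-coding, and reads are 3′ counts over the whole gene. Naip1, Nlrp9b and Nlrp1b have close paralogs (Naip2, Naip5 and Naip6; Nlrp9a and Nlrp9c; Nlrp1a) with which reads could be shared, Nlrp9b shares an exon with Gm18877 on the same strand, and Pycard overlaps Gm45205 on the other strand, so their counts are less certain.

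The first question was which cells carried these transcripts. Gsdmd, Nlrp9b and Naip1 were higher in the enterocyte gate than in the goblet gate. Nlrp6 and Il18 were also higher there, through its bottom zone, whereas Casp4 and Nlrc4 were close to even between the gates and Pycard and Casp1 leaned to the goblet gate. In all, 7 genes passed the test as lower in the goblet gate and none as higher, in edgeR's quasi-likelihood test with the mouse as block and Benjamini-Hochberg adjustment over 9901 genes, of which 71.5% passed in either direction, 37.1% as lower and 34.4% as higher. The median log2 difference was -0.88 for the 10 genes and -0.04 for all genes tested. Goblet markers took between 304235 and 489886 CPM of the goblet gate, which lowers the CPM of every other gene there. The log2 differences come from fits with TMM scaling, which is meant to offset such a shift, whereas the CPM values carry it in full. The median goblet-gate cell still had 0.297% of its UMIs from enterocyte markers. What remains of the shift after scaling, and the part of enterocyte transcripts in these differences, were not tested.

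Nlrp9b, which encodes a sensor of rotavirus RNA in intestinal epithelial cells, differed most. It was at 335, 229 and 275 CPM in the enterocyte gate of WT1, WT2 and WT3 and at 493, 242 and 374 in KO1, KO2 and KO3. In the goblet gate it was at 17.4, 20.7 and 15.4 CPM in WT and 18.4, 10.1 and 17.99 in KO mice. The gates did not overlap in any mouse, and the log2 difference was -4.06 (SE 0.15, adjusted p = 1.77e-08). In the Paneth gate it reached at most 12.6 CPM, and in the enteroendocrine gate 21.8 to 77.4 CPM.

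Gsdmd, the pore-forming end of the pathway, was at 564, 460.1 and 663 CPM in the enterocyte gate of WT mice and at 616, 372 and 670.1 in KO mice. Goblet-gate levels of Gsdmd were 93.9, 78.3 and 105 CPM in WT and 84.6, 51.6 and 92.1 in KO mice. All 6 mice were lower in the goblet gate, by -2.52 on the log2 scale (SE 0.12, adjusted p = 6.27e-08). A Gsdmd UMI was found in 94.8% to 98.6% of enterocyte-gate cells of a mouse and in 65.6% to 77.9% of goblet-gate cells, and after thinning each cell to 2000 UMIs in 66.9% to 76.5% and 13.5% to 21.4%.

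Nlrp6, a sensor described in the gut epithelium and its mucus layer, had 0.62 to 8.82 CPM in the goblet gate against 4.29 to 103 in the enterocyte gate (log2 difference -2.77, SE 0.37, adjusted p = 8.32e-05). Il18, the cytokine, had 22.0 to 34.0 CPM in the goblet gate and 55.0 to 463 in the enterocyte gate (-2.12, SE 0.47, adjusted p = 0.00233). Without the mice of hashtag 2 these differences were smaller, -1.93 for Nlrp6 and -1.27 for Il18, and still passed, and Il18 was at -1.02 when cells were thinned. Both differences lay in the lowest part of the villus. Among enterocyte-gate cells assigned to a mouse, the bottom zone held 10023 of 10797 Il18 UMIs and 1831 of 1876 Nlrp6 UMIs. In the middle and top zones Il18 was at 19.4 to 47.3 CPM and Nlrp6 at 0 to 3.47 CPM, ranges that overlap those of the goblet gate. The share of cells with an Il18 UMI was 22.8% to 38.1% in the enterocyte gate and 30.9% to 41.8% in the goblet gate, and 5.72% to 19.8% and 3.28% to 7.21% after thinning to 2000 UMIs. Naip1, which recognises the needle of bacterial secretion systems and hands the signal to NLRC4, was at 158 to 187 CPM in the enterocyte gate and 41.7 to 81.5 in the goblet gate (-1.30, adjusted p = 0.000137).

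Nlrc4 itself was at 122 to 160.1 CPM in the enterocyte gate and 67.1 to 105 in the goblet gate (-0.46, adjusted p = 0.00116). This call did not hold when every cell was thinned to 2000 UMIs (-0.29, adjusted p = 0.155). Casp4, the mouse gene of caspase-11, which binds bacterial lipopolysaccharide, was at 54.0 to 114 CPM against 39.7 to 84.1 (-0.23, adjusted p = 0.0432). That call was lost without any 1 of WT2, WT3, KO1, KO2 or KO3 (adjusted p between 0.0522 and 0.14), and the value turned to 0.05 when cells were thinned. Nlrp1b, whose product is cleaved by anthrax lethal factor, was below 10 CPM in both gates (-0.11, adjusted p = 0.651).

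Pycard and Casp1 went the other way, and the mice of hashtag 2 set how clearly. Pycard was at 9.29, 249.8 and 11.3 CPM in the enterocyte gate of WT mice and at 16.6, 545 and 28.3 in KO mice. In the goblet gate it was at 42.1, 274 and 49.0 CPM in WT and 43.2, 262 and 65.2 in KO mice. Pycard was higher in the goblet gate in 5 mice, least so in WT2, and lower in KO2. Over all 6 mice the log2 difference was 1.12 (SE 0.46, adjusted p = 0.0515), and without WT2 and KO2 it was 2.04 (SE 0.19, adjusted p = 1.21e-06), a fit in which 72.5% of genes passed. For Casp1 the difference was 0.68 (SE 0.33, adjusted p = 0.0861) over 6 mice and 1.32 (SE 0.16, adjusted p = 1.65e-05) over 4. Both genes also passed as higher in the goblet gate with all mice when cells were thinned to 2000 UMIs (64.3% of genes passing), Pycard with an adjusted p of 0.00134 and Casp1 at 1.10 with 0.000392, and when WT2 or KO2 alone was left out.

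**Figure D1:**
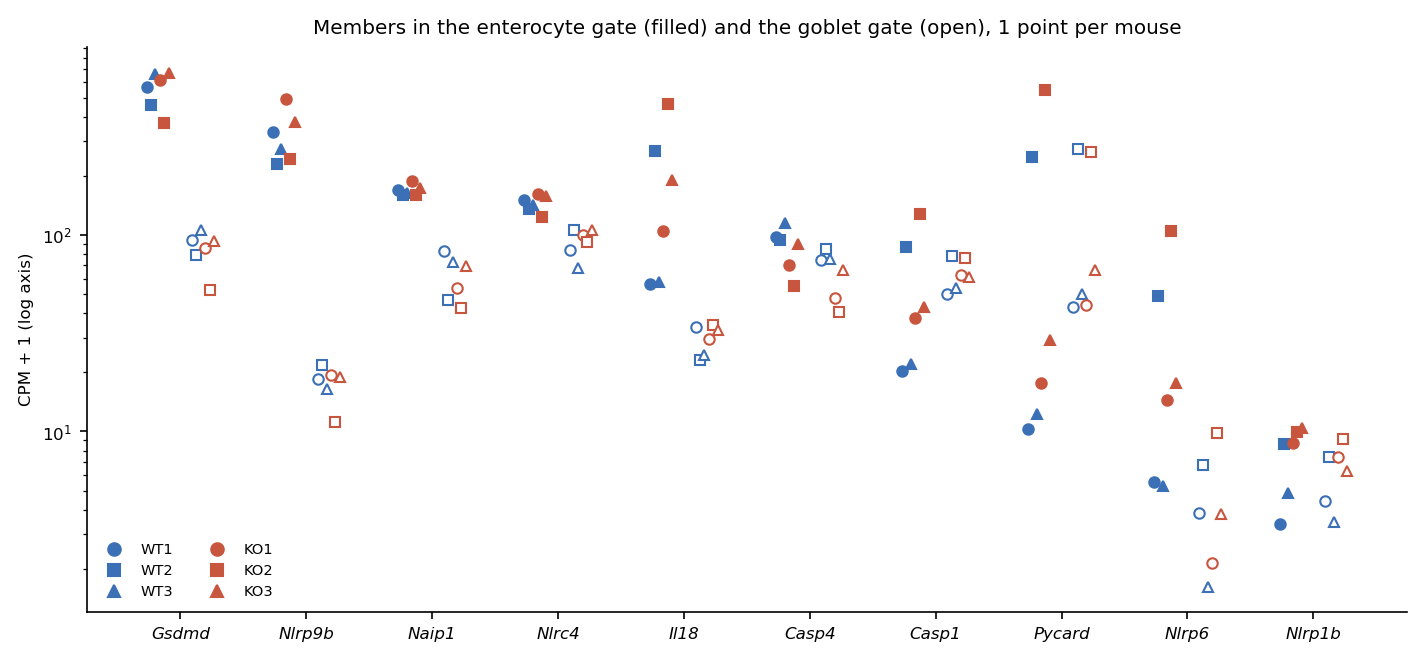
Level of each gene (CPM + 1, log axis) in the enterocyte gate (filled) and goblet gate (open), 1 point per mouse, blue for WT and red for KO, with the hashtag number as marker shape. Nlrp9b falls from 229 to 493 CPM in the enterocyte gate to 10.1 to 20.7 in the goblet gate, and the squares of WT2 and KO2 lie above the other mice for Pycard, Il18 and Nlrp6 in the enterocyte gate.

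In the crypt gate, of cells with stem or cycling markers, only WT2 and KO2 had more than 8 cells, so no test was made. Pycard reached 1179 CPM in WT2 and 1241 CPM in KO2 there, while Gsdmd was at 23.0 and 15.7, Nlrp9b at 8.19 and 5.29 and Il18 at 21.2 and 42.6. Nlrp6 was at 72.4 and 90.7 CPM and Casp1 at 88.9 and 94.0 in the same cells. Thus the adaptor was high where the sensor Nlrp9b and the pore gene were low. The Paneth gate, with 5 to 20 cells for each mouse, held Nlrc4 at 46.4 to 80.3 CPM, Gsdmd at 36.7 to 74.8 CPM and Pycard at 20.1 to 72.8 CPM.

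The second question was where along the villus the genes were read. Enterocytes are born in the crypt and move up the villus, and their programme changes on the way. The 4046 enterocyte-gate cells assigned to a mouse were ordered by landmark genes of the villus top and bottom, none of which is among the 10. They were cut into 3 zones of equal size over all mice together. All 10 genes passed the test of top against bottom, 5 higher at the top and 5 at the bottom, where 34.1% and 38% of the 8322 genes tested passed in those directions, together 72.1%. Their median log2 difference was -0.35 against -0.07 for all genes. Il18, Nlrp6, Pycard, Casp1 and Nlrp1b were genes of the villus bottom, and Nlrp9b, Naip1, Nlrc4, Casp4 and Gsdmd took a larger share of transcripts at the top.

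The zones differed in more than position. Bottom-zone cells had median depths of 7765 to 29528 UMIs across mice, and ribosomal protein genes took 0.67% to 1.49% of their UMIs against 0.46% to 0.62% at the top. The nuclear RNA Malat1 took 0.88% to 3.3% at the bottom and 5.87% to 7.55% at the top, and mitochondrial genes 8.05% to 15.6% and 14.6% to 17.6%. Genotypes also differed within the bottom zone. Median depth there was 7765, 13336 and 9257 UMIs in WT and 15500, 29528 and 14269 in KO mice. Mitochondrial shares there were 15.6%, 12.2% and 15.3% in WT and 9.94%, 8.05% and 11.2% in KO mice. The part of these features in the differences between zones or genotypes was not tested.

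Nlrp6 changed most along the villus. In the bottom zone it was at 12.4, 72.1 and 9.62 CPM in WT and 30.1, 147 and 27.7 in KO mice. At the top it was at 0.83, 0.75 and 0 CPM in WT mice, where a count of 0 in WT3 allows up to 1.11 CPM, and at 1.07, 3.29 and 2.05 in KO mice. The zones did not overlap in any mouse, and the log2 difference was -4.88 (SE 0.42, adjusted p = 1.54e-07). Without WT2 and KO2 it was -4.21 (adjusted p = 1.22e-08), and among cells with a ribosomal share under 3%, where bottom-zone Nlrp6 was at 7.82 to 30.5 CPM, it was -3.70 (adjusted p = 1.26e-10).

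Il18 followed the same course. Bottom-zone levels of Il18 were 106, 389.8 and 99.0 CPM in WT and 213, 653 and 305 in KO mice. Top-zone levels were 35.2, 19.4 and 24.8 CPM in WT and 28.5, 21.0 and 19.8 in KO mice. Every mouse was lower at the top, by -3.15 on the log2 scale (SE 0.41, adjusted p = 6.73e-06), and with cells of a ribosomal share under 3% the difference was -2.36 (adjusted p = 1.56e-10).

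Pycard fell from 15.9, 372 and 18.7 CPM at the bottom to 4.96, 14.9 and 7.02 at the top in WT mice. In KO mice it fell from 21.4, 774 and 42.5 CPM to 13.6, 13.8 and 9.56. The size of this fall rested on the mice of hashtag 2: it was -2.97 (SE 0.69, adjusted p = 0.00117) over all mice, -1.19 (adjusted p = 0.000242) without WT2 and KO2 (65.9% of genes passing), and -0.72 (adjusted p = 0.00277) among cells with a ribosomal share under 3% (70.3%). Casp1, the protease that matures IL-18, was at 32.5 to 173 CPM at the bottom and 10.2 to 20.4 at the top (-2.17, SE 0.29, adjusted p = 9.01e-06), with -1.62 without WT2 and KO2 and -1.52 under the ribosomal limit, both past the threshold. Nlrp1b was at 2.95 to 13.6 CPM at the bottom and 0.37 to 5.26 at the top (-1.51, SE 0.31, adjusted p = 0.000445).

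Nlrp9b was at 218, 136 and 233 CPM in the bottom zone of WT mice and at 227, 78.3 and 214 in KO mice. At the top it was at 388, 442 and 290.3 CPM in WT and 727, 651 and 659 in KO mice. It was higher at the top in 6 of 6 mice, by 1.66 on the log2 scale (SE 0.24, adjusted p = 1.82e-05), and by 1.35 without WT2 and KO2 (adjusted p = 3.07e-07). This value was 0.75 (adjusted p = 0.000264) when cells were thinned to 2000 UMIs before scoring, with 51.5% of genes passing. In UMIs per cell, too, Nlrp9b was higher at the top in 6 of 6 mice.

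The other upper-villus genes rose less. Naip1 was higher at the top by 1.45 (SE 0.15, adjusted p = 7.64e-07), Nlrc4 by 0.85 (SE 0.12, adjusted p = 1.85e-05), Casp4 by 0.91 (SE 0.18, adjusted p = 0.000254) and Gsdmd by 0.82 (SE 0.15, adjusted p = 0.000208) on the log2 scale. Each rise held in 6 of 6 mice in CPM, and without WT2 and KO2 the values were 1.27, 0.65, 0.81 and 0.55 in the same order, all past the threshold. In UMIs per cell, however, Naip1 was higher at the top in 5 mice, Casp4 in 2 and Nlrc4 and Gsdmd in 0 of 6, so the rise of the last 2 genes is one in their share of a cell's UMIs. Thinning lowered these values to 0.88 for Naip1, 0.48 for Nlrc4 and 0.47 for Gsdmd, which still passed, while Casp4 no longer did (0.33, adjusted p = 0.147).

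**Figure D2:**
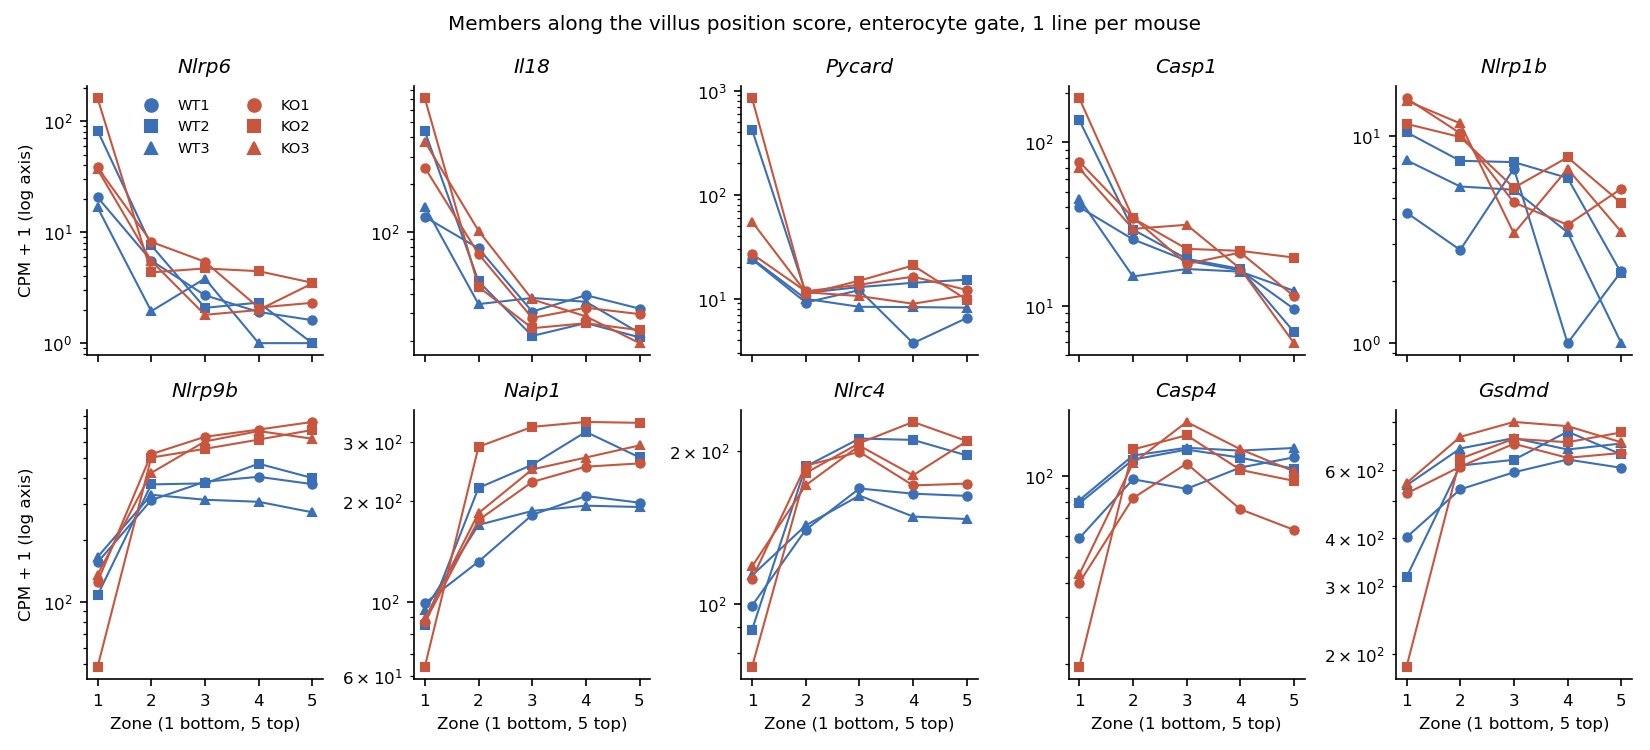
Level of each gene (CPM + 1, log axis) in 5 zones of the enterocyte gate from the villus bottom (1) to the top (5), 1 line per mouse, blue for WT and red for KO. Nlrp6, Il18, Pycard and Casp1 drop between zones 1 and 2, while Nlrp9b rises and its KO lines separate from the WT lines above zone 1.

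The bottom zone was not uniform, and cells with a ribosomal protein share of at least 3% carried much of its Pycard. Among them Pycard was at 874 CPM in WT2 and 1021 in KO2, and at 78.6 to 336 in the other mice, which had 4 to 11 such cells each. Among the remaining bottom-zone cells it was at 6.77, 43.8 and 11.0 CPM in WT and 18.5, 36.2 and 17.96 in KO mice. Il18 differed less between these cells: it was at 159 to 807 CPM above the limit and 93.3 to 278 below it. Nlrp9b was lower above the limit in all 6 mice, at 17.9 to 60.0 CPM against 198 to 259.7 below it. This limit was chosen after the values had been seen, so cells above and below it were not tested against each other. The p-values given elsewhere for cells under the limit rest on the same choice.

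**Figure D3:**
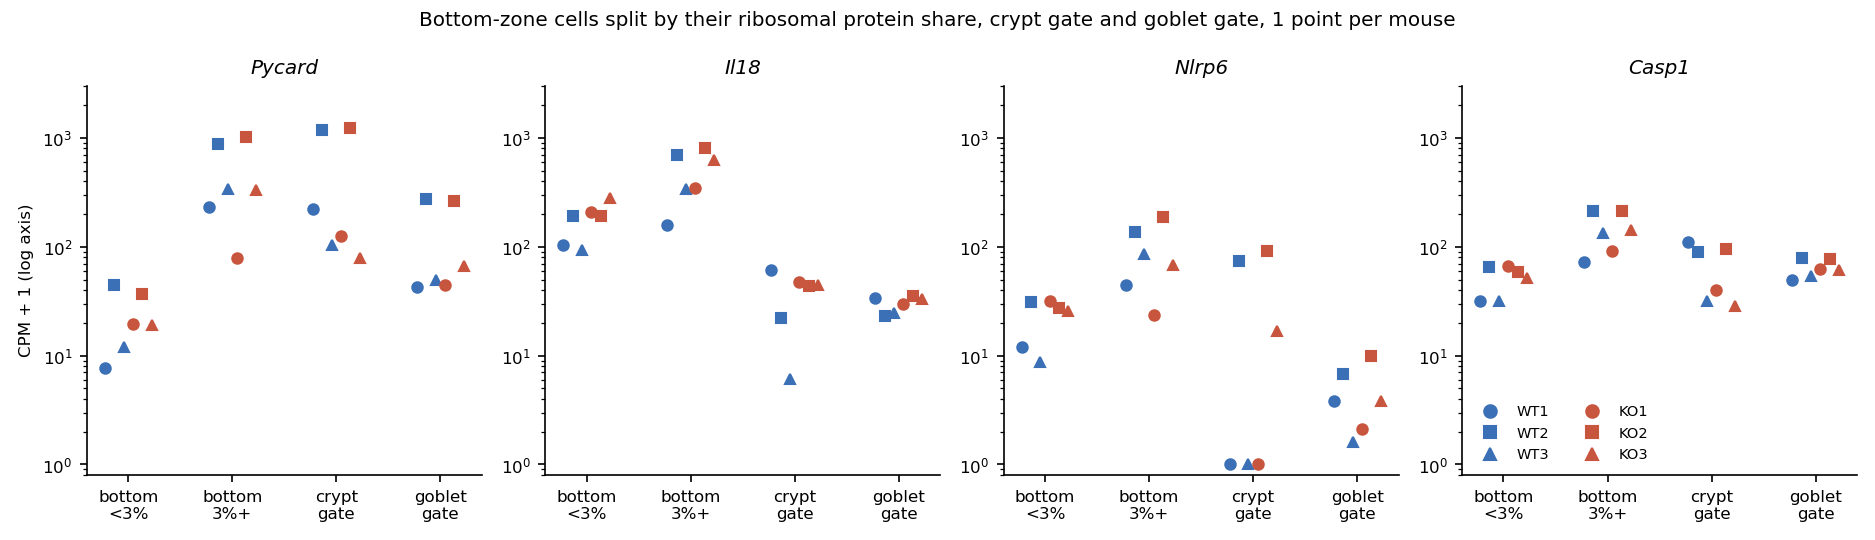
Pycard, Il18, Nlrp6 and Casp1 (CPM + 1, log axis) in bottom-zone cells with a ribosomal protein share under 3% or of 3% and more, in the crypt gate and in the goblet gate, 1 point per mouse. Pycard lies between 6.77 and 43.8 CPM under the limit and between 78.6 and 1021 CPM above it, and the crypt gate reaches 1241 CPM in KO2.

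Genes with the most similar profile over the 18 sums of mouse and zone were listed by Pearson correlation of log2(CPM + 1) among 4679 genes. These sums share mice, depth and base composition, and the correlation is a description. Nlrp9b went most closely with Ceacam20 (r = 0.991), Ipmk (0.988), Rb1 (0.986), Kcnk5 (0.981) and Shroom3 (0.98). Gsdmd went with Aqp7 (0.974), Muc3 (0.968), Cxcl16, Fam3b and F2rl1. Pycard went with the ribosomal protein genes Rpsa (0.981), Rpl13 (0.98), Rps24, Rpl8 and Rpl26. Nlrp6 went with the respiratory chain genes Uqcr11 (0.985), Atp5g1 (0.982), Ndufb1-ps and Ndufb10 and with Mrpl42, Il18 with the mitochondrial genes Ech1 (0.985), Uqcrq, Iscu, Cox7c and Sdhb, and Casp1 with Rab25 (0.985), Cdk2ap2, Rps20, Mgst2 and Sec61b.

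The third question was whether loss of the interferon lambda receptor changed these genes. Over the whole enterocyte gate none of the 10 passed the test, in which 5 of 10566 genes (0.0473%) did. Their median log2 difference of KO over WT was 0.41 against 0.06 for all genes. Of them, 2 had groups that did not overlap: Nlrp1b was higher in KO mice (11% of all genes did so) and Casp4 lower (3.98%). The upper villus gave another picture for 1 gene, Nlrp9b, which passed as higher in KO mice in the middle and top zones under every alternative run. Genotype tests within single zones were not among the planned comparisons.

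Nlrp9b in the middle zone was at 376, 385 and 308 CPM in WT and 617, 591 and 545 in KO mice. All KO mice were above all WT mice, which 16.7% of genes showed, and the log2 difference was 0.64 (SE 0.11, adjusted p = 0.00274). It was the only one of 8 tested genes to pass, where 2.6% of 7457 genes passed as higher and 6.56% in either direction. In the top zone the KO values of 727, 651 and 659 CPM were all above the WT values of 388, 442 and 290.3 (18.8% of genes showed this), by 0.77 on the log2 scale (SE 0.13, adjusted p = 0.00223), and Nlrp9b again alone passed of 8, where 3.25% of 7048 genes passed as higher and 8.12% in either direction. The call held without the mice of hashtag 2 and under each other alternative run, with adjusted p of at most 0.0409 in the middle zone and 0.0153 at the top.

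In the bottom zone Nlrp9b did not pass (log2 difference -0.29, SE 0.44, adjusted p = 0.892), with WT mice at 136 to 233 CPM and KO mice at 78.3 to 227. Among bottom-zone cells with a ribosomal share under 3% the groups lay at 198 to 238 and 227 to 259.7 CPM (0.05, adjusted p = 0.917). Over the whole gate Nlrp9b gave 0.23 (SE 0.32, adjusted p = 0.808). The change of the genotype difference from bottom to top was 1.08 (SE 0.39), with an unadjusted p of 0.0154 and an adjusted p of 0.776 in edgeR's quasi-likelihood test, in which 0 of 9135 genes passed, 559 had an unadjusted p under 0.05 and DESeq2 called 9. Without the mice of hashtag 2 it was 1.07 (SE 0.15, adjusted p = 0.000506, 1.89% of genes passing), and among cells with a ribosomal share under 3% it was 0.70 (SE 0.16, adjusted p = 0.0384, 0.369% passing). With no low-count filter it was 1.03 (adjusted p = 0.0731), and Il18 was called instead, at -1.35 (adjusted p = 0.0227). Il18 also passed without the mice of hashtag 2 (-1.53, adjusted p = 0.00272).

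The share of enterocyte-gate cells with an Nlrp9b UMI, after each cell was thinned to 2000 UMIs, was 50.5%, 42.3% and 43.8% for WT1 to WT3 and 64.2%, 53.1% and 54.9% for KO1 to KO3. The groups did not overlap, with means of 45.5% ± 4.38 (SD, n = 3) and 57.4% ± 5.97 (SD, n = 3) and p = 0.1 in a 2-sided exact permutation test, the smallest that 3 against 3 allows. Before thinning the lowest and highest shares over the 6 mice were 83.5% and 94.1%. Thinned goblet-gate cells, at the same depth, had shares of 2.33% to 7.51%. Naip1 also had higher shares in all KO mice, at 36.4% ± 2.67 (SD, n = 3) against 30.0% ± 3.70 (SD, n = 3) with an exact permutation p of 0.1, but its summed level did not pass in the middle (0.31, adjusted p = 0.329) or top zone (0.24, adjusted p = 0.369). How many of all genes separate in this way by thinned shares was not computed. By CPM in the enterocyte gate, 11% of all genes tested were higher in all KO mice.

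**Figure D4:**
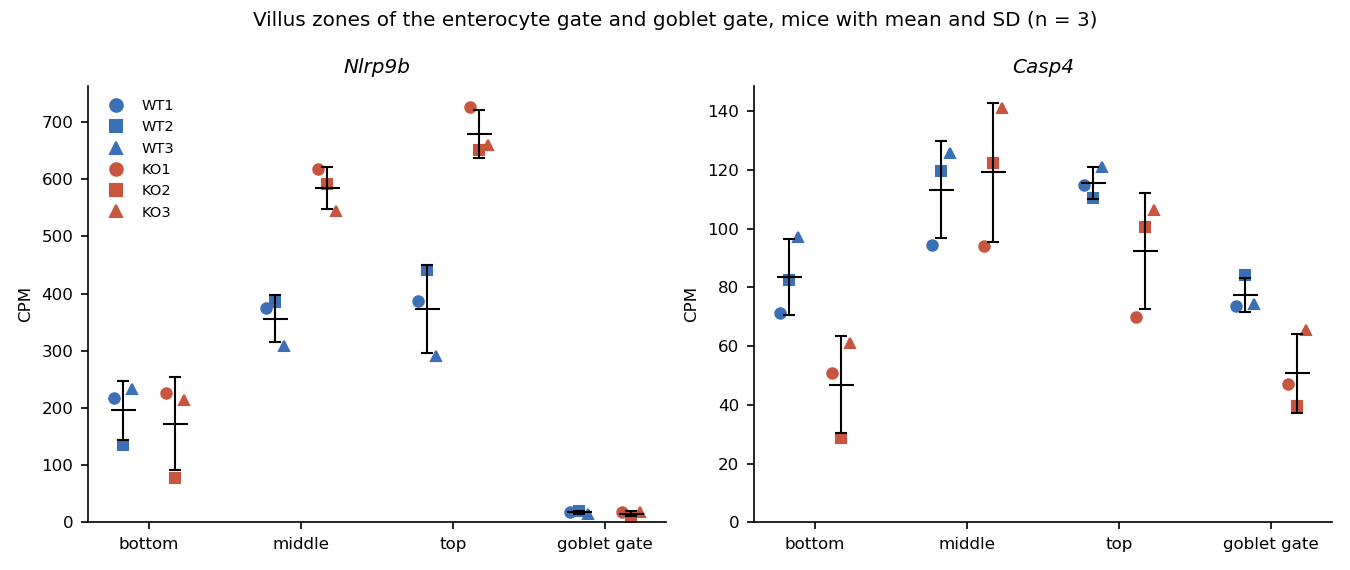
Nlrp9b and Casp4 (CPM) by zone of the enterocyte gate and in the goblet gate, 1 point per mouse, blue for WT and red for KO, with mean and SD of 3 mice as black bars. Nlrp9b is higher in all KO mice in the middle and top zones and overlaps at the bottom, and Casp4 is lower in all KO mice in the bottom and top zones and in the goblet gate.

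Casp4 was lower in all KO mice in the enterocyte gate, its bottom and top zones and the goblet gate. Over all assigned cells and in the middle zone the groups overlapped. Whether Casp4 passed depended on the fit. In the enterocyte gate it was at 96.2, 93.6 and 114 CPM in WT and 69.0, 54.0 and 89.5 in KO mice. The groups did not overlap and the log2 difference was -0.69 (SE 0.24, adjusted p = 0.656). With the hashtag number as a block it was -0.70 (SE 0.11, adjusted p = 0.00375), a fit in which 17.5% of genes passed. Among cells with a ribosomal share under 3% it was -0.42 without the block (adjusted p = 0.258) and -0.43 with it (adjusted p = 0.307).

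In the goblet gate Casp4 was at 73.8, 84.1 and 74.2 CPM in WT and 47.0, 39.7 and 65.5 in KO mice. No overlap was seen here either, which 4.18% of genes showed in this direction, and the difference of -0.71 (SE 0.25, adjusted p = 0.999) did not pass without the block, in which 2 of 9075 genes (0.022%) did. It passed with the block (-0.74, adjusted p = 0.0096, 2.6% of genes passing) and, without the block, among goblet-gate cells with a ribosomal share under 3% (-0.62, SE 0.15, adjusted p = 0.0413, 2.26% of genes passing). In the top zone Casp4 was at 115, 110.3 and 121 CPM in WT and 69.9, 101 and 107 in KO mice (-0.45, SE 0.17, adjusted p = 0.121), again without overlap (8.41% of genes in this direction). In the bottom zone it was at 71.4, 82.5 and 97.0 CPM against 50.8, 28.9 and 61.0 (-0.95, SE 0.31, adjusted p = 0.89), where 2 of 9552 genes (0.0209%) passed and 3.28% did not overlap in this direction, and with the block it was -1.02 (adjusted p = 0.0157, 10% of genes passing), and without WT2 and KO2 it was -0.75 (adjusted p = 0.0342, 7.01% passing). In the middle zone the groups overlapped (-0.02, adjusted p = 0.97).

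Of the 5 genes of the villus bottom, Il18, Nlrp6, Casp1 and Pycard passed as higher in KO mice with the hashtag block. The first 3 of them also passed without the mice of hashtag 2, and Nlrp1b passed in neither fit. Bottom-zone cells had a higher median depth in all KO mice than in all WT mice, and the part of depth was not tested. Il18 was at 55.0, 266 and 57.0 CPM in the enterocyte gate of WT mice and at 104, 463 and 190.4 in KO mice. The groups overlapped because WT2 was above KO1 and KO3, and the log2 difference was 0.92 (SE 0.76, adjusted p = 0.79). With the hashtag block it was 0.99 (SE 0.16, adjusted p = 0.00364), and without WT2 and KO2 it was 1.18 (SE 0.26, adjusted p = 0.0406), with 7.42% of genes passing. Among cells with a ribosomal share under 3% it was 0.56 (SE 0.30, adjusted p = 0.427).

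Nlrp6 was at 4.56, 48.2 and 4.29 CPM in WT and 13.5, 103 and 16.6 in KO mice. As for Il18, WT2 was above KO1 and KO3 (log2 difference 1.16, SE 1.15, adjusted p = 0.79). It gave 1.31 with the block (SE 0.16, adjusted p = 0.000969), 1.55 without hashtag 2 (SE 0.22, adjusted p = 0.0125) and 0.59 among cells with a ribosomal share under 3% (SE 0.46, adjusted p = 0.602). Casp1 (0.60, adjusted p = 0.797) gave 0.65 with the block (adjusted p = 0.00609), 0.74 without hashtag 2 (adjusted p = 0.0309) and 0.29 among cells under the limit (adjusted p = 0.624). Pycard (1.09, SE 1.66, adjusted p = 0.817) gave 0.98 with the block (adjusted p = 0.00217), 0.90 without hashtag 2 (adjusted p = 0.0916), -2.06 without KO2 alone and 0.12 among cells under the limit (adjusted p = 0.939). No member passed in cells under the limit, with or without the block, where 1.52% and 0.878% of 10023 genes passed.

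The sensors Nlrc4 and Naip1 and the pore gene Gsdmd gave differences near 0 in the enterocyte gate. Gsdmd differed by -0.21 (SE 0.31, adjusted p = 0.812), by 0.07 (SE 0.12) in the middle zone and by -0.03 (SE 0.11) at the top. Nlrc4 differed by -0.12 (SE 0.19, adjusted p = 0.821) and Naip1 by -0.09 (SE 0.17, adjusted p = 0.851), and both turned positive in some alternatives. Nlrp1b, at 2.36, 7.59 and 3.86 CPM in WT and 7.71, 8.89 and 9.47 in KO mice, differed by 0.77 (SE 0.38, adjusted p = 0.776). Over all assigned cells together 0 of 12944 genes (0%) passed, 232 had an unadjusted p under 0.05 and DESeq2 called 36. With the block 1.17% passed, among them Nlrp6 (0.85, adjusted p = 0.0486) and Casp4 (-0.89, adjusted p = 0.039).

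**Figure D5:**
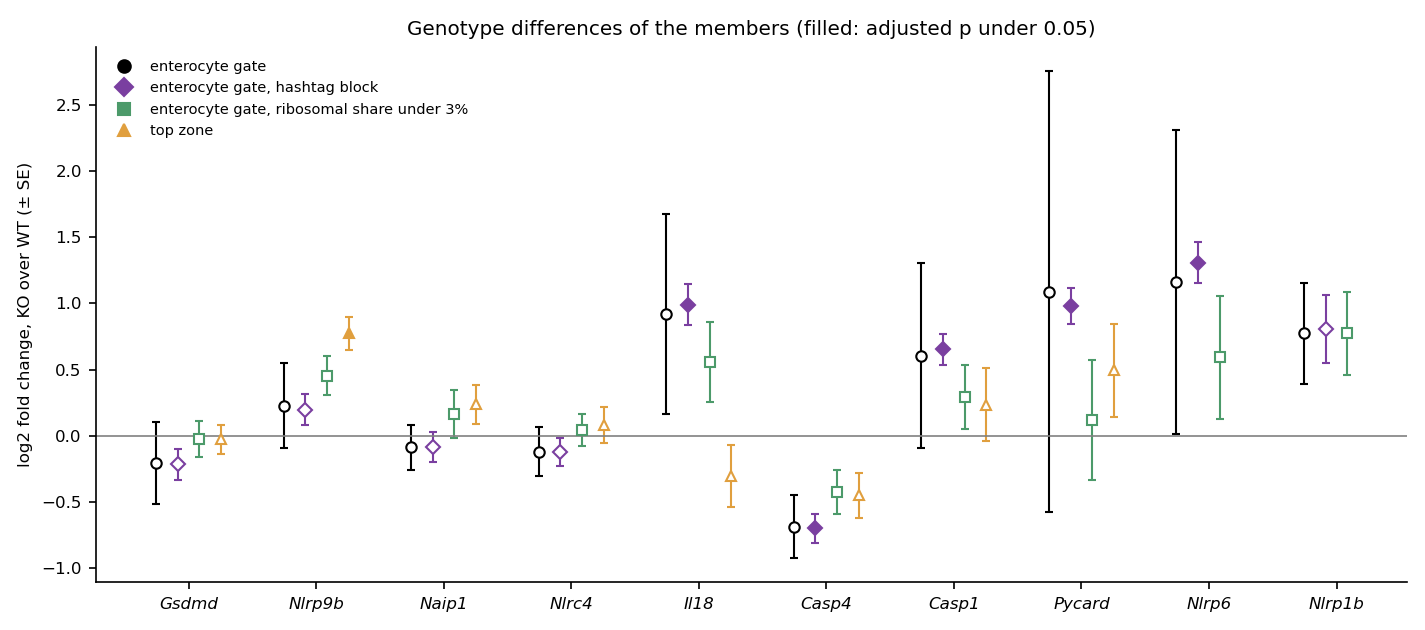
Log2 fold change of KO over WT with its SE for each gene in the enterocyte gate, with the hashtag block, among cells with a ribosomal share under 3%, and in the top zone, filled where the adjusted p is under 0.05. Nlrp9b passes in the top zone (0.77), and Il18, Casp4, Casp1, Pycard and Nlrp6 pass with the block alone.

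Markers of other cells were low in the enterocyte gate. Pan-immune markers (4 genes) summed to 2.02 to 3.65 CPM for each mouse with 2 or 3 of them at 0, macrophage markers (8 genes) to 0.55 to 1.83 CPM with 3 to 6 at 0, neutrophil markers (7 genes) to 0.12 to 3.33 CPM and lymphoid markers (11 genes) to 0.7 to 2.68 CPM. Goblet markers summed to 1624 to 2290 CPM and Paneth markers to 286 to 771 CPM. In the top zone, where Nlrp9b differed by genotype, goblet markers summed to 2165 to 2481 CPM, and their part in the difference was not tested.

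Other genes of the pathway were described from a list of 40, of which 39 were in the matrices and most were too low to test in enterocytes, among them Nlrp3, Il1b and the Gsdmc genes. Along the villus 15 could be tested: 7 passed as higher at the top and 4 at the bottom, with a median of 0.15. Of all 8322 genes tested, 34.1% and 38% passed in those directions, together 72.1%, with a median of -0.07. Il33, an alarmin, was lower at the top by -3.61 (SE 0.27, adjusted p = 5.28e-08) and Il18bp, the secreted inhibitor of IL-18, by -1.12 (SE 0.21, adjusted p = 0.000179). Gsdma (2.75), Nlrx1 (1.41) and Gsdme (1.20) were higher at the top, although Gsdma stayed under 9 CPM in every mouse and zone. So Il18 and the gene of its inhibitor were both at their highest at the villus bottom.

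Between genotypes 18 genes of this list could be tested in the enterocyte gate and none passed without the block. With it 1 of them passed as higher and 2 as lower, where 10% and 7.51% of all 10566 genes did, together 17.5%. Il18bp was lower in KO mice (-0.93, SE 0.16, adjusted p = 0.00575), Il33 higher (0.91, SE 0.25, adjusted p = 0.032) and Nlrc5, a regulator of MHC class I genes, lower (-4.62, adjusted p = 0.000605). Il18bp was at 17.9, 21.9 and 28.0 CPM in WT and 13.4, 9.16 and 18.04 in KO mice, so that the groups overlapped by 1 mouse. Nlrc5 rested on 88 UMIs in WT and 4 in KO mice, a ratio of 26.6 with an exact 95% interval of 10.0 to 99.7 that covers counting error only.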

How the data were processed

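Gene counts and hashtag counts of 2 pooled 10x libraries (1 per genotype) were the deposited data: the authors' files hold whole-number UMI counts per gene and barcode, not normalized. Cell Ranger 7.0.1, Seurat 4.1.0 and the mm10 build are named in the submitters' processing notes, and whether intronic reads were counted is not given in the sources used here. Barcodes with at least 1000 UMIs, 500 genes and at most 25% mitochondrial UMIs were kept (5563 of 10453 WT and 4028 of 7370 KO), and 28 barcodes occur in both libraries. HTODemux of Seurat 5.3.0 (quantile 0.99) gave each barcode its mouse and marked 549 and 305 barcodes as doublets and left 2241 and 855 without a hashtag. Both were left out of comparisons, and no doublet caller on transcripts was run. A second experiment of the series was not analysed here.

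Gates were set by the share of UMIs from marker genes (enterocyte 2%, goblet 4%, Paneth 4%, enteroendocrine 0.5%, immune 0.3%, tuft 0.2%, crypt 0.1%), with limits chosen after the distributions had been seen. Within 1.5-fold of a limit lay 334 enterocyte-gate and 158 goblet-gate cells. UMIs were summed per mouse and tested with edgeR's quasi-likelihood test (4.0.16, R 4.3.3, TMM, low-count filter, Benjamini-Hochberg over all genes, threshold 0.05), with the mouse as block within mice. DESeq2 1.42.0 was an alternative. Permutation tests went through every split of the mice with numpy 2.4.6 (Python 3.11.15), and exact counting intervals used scipy 1.17.1. The scripts were tested on simulated data. P-values measure the spread between mice of 2 pools.

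The labels state no pairing of hashtag numbers across genotypes. Same-numbered mice deviated together in the enterocyte gate (r = 0.595, 0.816 and 0.483 for numbers 1 to 3), the goblet gate, all cells and the bottom zone, so values with the number as block stand beside those results, although WT3 and KO1 also correlated in the enterocyte gate (r = 0.606). Named genes were all 10 members, up to 6 genes of the pathway list with the largest change in each comparison (1 of which is not reported here), and the 5 genes of most similar profile for 6 members. The members and lists were chosen with earlier results of these data known. The ribosomal limit of 3% (83 genes) was added after seeing the data.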

Additional observations from a re-analysis of the deposited data

Results flagged for a closer look

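Enterocyte-gate cells without a hashtag entered no comparison. All 10 genes differed there between the KO and WT pools in at least 1 zone, in either direction. Their exact 95% binomial counting intervals did not overlap in those zones. With 1 pool per genotype there is no test between mice. In the bottom zone (733 WT and 235 KO cells, median depths 3825 and 11579 UMIs) Il18 was at 618.5 CPM in KO against 237.84 in WT, Pycard at 364.58 against 234.75, Casp1 at 137.15 against 82.15, Nlrp6 at 108.92 against 37.76 and Nlrp1b at 11.85 against 3.98. The other 5 genes were lower in the KO pool in that zone: Nlrp9b at 165.91 CPM against 212.22, Gsdmd at 340.53 against 446.53, Naip1 at 79.82 against 124.99, Nlrc4 at 86.27 against 105.12 and Casp4 at 47.58 against 79.72. In the middle zone (418 and 324 cells) Nlrp9b was at 652.79 CPM against 440.46, Gsdmd at 752.41 against 636.36, Naip1 at 287.11 against 230.89, Nlrc4 at 200.05 against 156.07 and Nlrp1b at 8.1 against 1.21. At the top (287 and 238 cells) Nlrp9b was at 736.87 CPM against 407.84, Naip1 at 310.03 against 222.88 and Pycard at 13.29 against 4.1. The part of the difference in depth was not tested.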

How the results depend on the processing

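Of 602 alternative values for single genes, 542 kept their direction and side of the threshold, 34 newly passed, 9 no longer passed and 17 changed sign. None of the 146 values for villus position changed sign. With the replicate block, members passing rose from 0 to 5 in the enterocyte gate, 0 to 1 in the goblet gate and 0 to 2 in all cells. They rose from 0 to 5 in the bottom zone and from 1 to 2 in the top zone, where same-numbered mice correlated little (r = 0.112, 0.021 and 0.109). In the same order 17.5%, 2.6%, 1.17%, 10% and 11.5% of all genes passed with the block. Without it 0.0473%, 0.022%, 0%, 0.0209% and 8.12% did. Without the mice of hashtag 2, members passing were 3 in the enterocyte gate, 2 in the goblet gate, 4 in the bottom zone and 2 in the test of genotype by position. Of all genes 7.42% passed in the enterocyte gate, 7.01% in the bottom zone and 1.89% by position. For the goblet gate without these mice the share of all genes is not given here, and over all alternatives at most 476 genes were called. With a ribosomal share under 3%, members passing were 1 in the goblet gate, with or without the block, 1 by position and, with the block, 2 in the middle zone. Of all genes 2.58% and 2.26% passed in the goblet gate with and without the block. By position 0.369% passed, and 9.94% in the middle zone with the block. With no low-count filter, members passing were 2 at the top and 1 (Il18) by position, and the share of all genes passing in these fits is not given here. Over all alternatives at most 903 genes were called at the top and 173 by position, the latter without the mice of hashtag 2. Leaving out 1 mouse gave 1 to 2 members at the top, with 261 to 654 genes called in all.

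Between genotypes in the enterocyte gate Nlrc4 turned to 0.05 under library totals, and to 0.045 and 0.04 under the ribosomal limit without and with the block. Naip1 turned to 0.081 under library totals, 0.26 with thinned cells, and 0.17 and 0.13 under the ribosomal limit without and with the block. Nlrp9b in the bottom zone turned to 0.054 and 0.055 under that limit, and Casp4 between gates to 0.053 with thinned cells. Leaving out 1 mouse gave ranges in the enterocyte gate of -0.42 to 3.11 for Nlrp6, -0.04 to 0.45 for Nlrp9b, -2.06 to 4.03 for Pycard, -0.21 to 1.53 for Casp1 and -0.39 to 0.009 for Gsdmd, of -0.89 to 2.60 for Nlrp6 in all cells, and of -0.54 to 0.041 for Nlrp9b in the bottom zone. The sign turned without KO2, except for Nlrp9b in the enterocyte gate (without KO1).

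Counts over all genes ran from 0 to 1853 in the enterocyte gate (5 as reported), 0 to 956 in the bottom zone (2), 0 to 476 in the goblet gate (2), 0 to 152 in all cells (0), 0 to 173 by position (0), 122 to 857 in the middle zone (489), 250 to 903 at the top (572), 2389 to 7085 along the villus (5997) and 3635 to 8427 between gates (7080). Library totals moved the split of higher and lower calls to 279 and 197 from 194 and 295 in the middle zone, 375 and 244 from 229 and 343 at the top, 2174 and 3720 from 2834 and 3163 along the villus, and 2792 and 4195 from 3406 and 3674 between gates. They moved the median of all genes from 0.056 to 0.211 in the enterocyte gate.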

Other observations

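Other pathway genes separated the goblet from the enterocyte gate. Of 18 tested, 9 passed as higher and 7 as lower in the goblet gate, with a median log2 difference of 0.21. Of all 9901 genes tested, 34.4% and 37.1% passed in those directions, together 71.5%, with a median of -0.04. The pathway genes named here were picked after their values had been seen. Aim2, a DNA sensor, was at 3.72 to 9.85 CPM in the goblet gate and at most 1.54 in the enterocyte gate (3.38, adjusted p = 6.73e-05). Nek7, a partner of NLRP3, was at 9.44 to 23.8 CPM against 2.75 to 4.58 (2.52, adjusted p = 8.04e-07), and Il33 was higher by 2.20 (adjusted p = 0.000191).

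The enteroendocrine gate (75 assigned cells) held Gsdmd at 27.5 to 92.9 CPM, and the tuft gate (43 assigned cells) at 0 to 150 CPM. These gates have too few cells per mouse for a test.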
